A study of Mus musculus with 8 samples.

Results

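The brush border is the carpet of microvilli on the apical face of intestinal epithelial cells. Each microvillus is held up by a core of parallel actin filaments, which bundling proteins pack together, linkers tie to the plasma membrane, and protocadherins join to neighbouring microvilli at their tips. The genes described here encode the structural proteins of this surface. They are Vil1, Espn, Pls1, and Eps8 (actin bundling and filament tips), Ezr and Myo1a (links between membrane and actin), and Cdhr2, Cdhr5, Ush1c, and Myo7b (the intermicrovillar adhesion complex). Every probe set (a set of array probes for 1 transcript) annotated to exactly 1 of these symbols was taken, which gave 13 probe sets for all 10 genes, out of 45037 probe sets and 18193 genes tested.

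The mice were male C57BL/6 animals kept in specific pathogen–free conditions, given metronidazole and ciprofloxacin, and then inoculated at 8 wk of age with a strain of Bacteroides thetaiotaomicron, a gut symbiont. Of the 8 mice, 4 carried BTΔMAFF, a mutant from which the MAFF genes (mucus-associated functional factor, a bacterial gene system) had been deleted, and 4 carried the wild-type strain, BTWT. At 12 wk of age, 4 wk after colonization, viable EpCAM+ epithelial cells of the colon were purified by FACS with CD45+ leukocytes gated out, and their RNA was hybridized to 1 Affymetrix mouse genome array per mouse. The sorted cells mix all epithelial types of the crypt and surface, and the hosts of both groups were wild-type mice.

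The deposited values are log2 values from which the median of the 8 arrays has been subtracted for each probe set. A value of 0 is thus the middle of these mice, and levels cannot be compared between genes or called present or absent. Differences are BTΔMAFF minus BTWT on this log2 scale. On the first principal component of all probe sets, which held 29.4% of the variance, BTΔMAFF replicate 4 (47.0) and BTWT replicate 2 (58.1) stood apart from the other 6 arrays, which lay between -36.8 and -6.39. Epcam, the gene of the sorted surface protein, differed by -0.10 (95% confidence interval -0.65 to 0.44) on the probe set of wider spread. On its other probe set the difference was 0.037 (interval -0.049 to 0.12). Ptprc, which encodes CD45, varied over the 8 arrays by 0.11 on the probe set of wider spread and by 0.088 on the other.

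Of the 10 genes, 4 were higher in BTΔMAFF mice at an unadjusted p under 0.05 by limma, a linear model that shares the variance estimate across probe sets, and 0 were lower. These were Espn (1.81-fold), Myo1a (1.71-fold), Vil1 (1.32-fold), and Ush1c (1.25-fold), and in each of them every BTΔMAFF mouse lay above every BTWT mouse. Over all genes, with 1 probe set each, 3.37% were higher at the same threshold, 2.35% were lower, and 1.84% had every BTΔMAFF mouse above every BTWT mouse. No difference of a member passed Benjamini-Hochberg adjustment over the 45037 probe sets in limma, and neither did that of any other probe set (0%). The median difference of the 10 genes was 0.29, and 9 of the 10 differences were above 0. Over all genes the median was -0.019, with 33.2% above 0. That share includes genes of small spread with differences just below 0, such as Cd3e (-0.013) and Des (-0.020). An offset of this size between arrays can turn such signs. With each array centred on its median, 1 Ezr probe set of small spread went from -0.017 to 0.0014. The 33.2% is thus a weak yardstick for the signs of the members. By probe set, 4 of 13 were higher, against 2.86% of all probe sets, and 0 were lower, against 2.24%. The same 4 of 13 had every BTΔMAFF mouse above every BTWT mouse, against 1.56% of all probe sets. None of the 13 passed the pair of thresholds used in the study, a fold change over 2 with an unadjusted p under 0.05, which 0.548% of all probe sets passed in either direction.

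**Figure D1:**
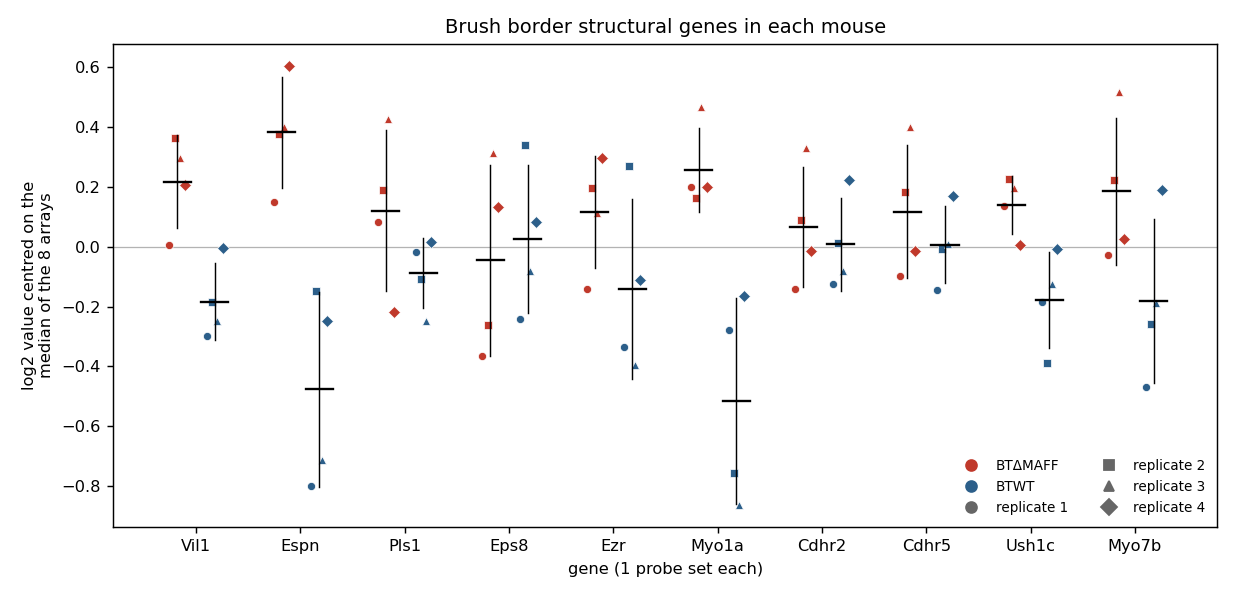
Centred log2 values of the 10 brush border genes in each mouse, with 1 probe set per gene; points are mice (shape gives the replicate number), horizontal bars are group means, and vertical lines are 1 SD (n = 4 mice each). BTΔMAFF values lie left of BTWT values for each gene, and the 2 groups are fully separated in Vil1, Espn, Myo1a, and Ush1c.

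Promoter sequence is shown for 3 of the genes that were higher in BTΔMAFF mice, in which the groups did not overlap, and for Cdhr2, which did not pass the unadjusted threshold but holds the same type of match as Vil1. Each is the 250 bases before the gene's start in RefSeq, build GRCm38.p6, written 5′ to 3′ on the gene's strand. Capitals mark a match to CAAAGT or CAAAGG on either strand, the core letters of sites for HNF4 factors, which are regulators of enterocyte genes.
Vil1 (chr1:74409134-74409383, plus strand): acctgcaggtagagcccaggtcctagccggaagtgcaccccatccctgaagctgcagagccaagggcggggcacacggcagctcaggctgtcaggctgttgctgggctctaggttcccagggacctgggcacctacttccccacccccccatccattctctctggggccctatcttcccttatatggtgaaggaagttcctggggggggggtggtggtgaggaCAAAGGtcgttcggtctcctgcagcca
Myo1a (chr10:127705006-127705255, plus strand): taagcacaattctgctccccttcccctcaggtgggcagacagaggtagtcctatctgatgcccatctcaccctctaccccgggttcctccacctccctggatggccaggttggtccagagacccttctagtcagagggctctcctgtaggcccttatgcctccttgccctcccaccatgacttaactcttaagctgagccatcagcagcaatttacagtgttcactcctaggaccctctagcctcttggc
Ush1c (chr7:46238491-46238740, minus strand): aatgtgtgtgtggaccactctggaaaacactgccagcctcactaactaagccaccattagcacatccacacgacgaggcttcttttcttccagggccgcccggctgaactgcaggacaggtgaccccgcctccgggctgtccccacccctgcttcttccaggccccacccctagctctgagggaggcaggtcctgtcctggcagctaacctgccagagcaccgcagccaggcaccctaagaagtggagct
Cdhr2 (chr13:54701213-54701462, plus strand): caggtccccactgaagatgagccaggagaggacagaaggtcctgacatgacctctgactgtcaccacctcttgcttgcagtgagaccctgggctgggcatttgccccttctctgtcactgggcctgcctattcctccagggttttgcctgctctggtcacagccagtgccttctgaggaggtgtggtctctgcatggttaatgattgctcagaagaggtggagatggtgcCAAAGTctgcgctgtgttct
The match lay 27 to 22 bases before the start in Vil1 and 20 to 15 bases before it in Cdhr2, on the strand shown in both. Of the 8 members with a sequence in the RefSeq table (Eps8 and Myo7b had none), these 2 held such a match, as did 27.8% of 32851 promoter windows of the same length. Espn, the remaining gene that was higher in BTΔMAFF mice, had 3 windows with 0 such matches and is not printed. TTTATG, a core of CDX factor sites, was found in 2 of the 8 (Cdhr5 and 1 of the 3 Espn windows), against 10.8% of all windows. The TATA box TATAAA was found in 0 of the 8, against 12.4% of all windows. These shares are by window whereas the counts of members are by gene, and the 8 genes had 10 windows, 3 of them for Espn. Both strands were searched for each motif, and none is contained in another. These matches are descriptions of the letters and say nothing of binding.

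Among the bundling proteins, Espn had the largest difference of the members. It encodes espin, which packs parallel actin filaments in microvilli and in the stereocilia of hair cells. Its centred log2 values were 0.15, 0.38, 0.40, and 0.60 in BTΔMAFF mice, against -0.80, -0.15, -0.71, and -0.25 in BTWT mice. The lowest BTΔMAFF mouse lay 0.30 above the highest BTWT mouse, and within BTWT the values formed a lower pair (replicates 1 and 3) and a higher pair (replicates 2 and 4). The means were 0.38 ± 0.19 in BTΔMAFF mice and -0.48 ± 0.33 in BTWT mice (SD, n = 4 each), a difference of 0.86 (SE 0.17, 95% confidence interval 0.45 to 1.27). In limma the unadjusted p was 0.0017 and the adjusted p was 0.37.

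Vil1 encodes villin, a calcium-regulated protein that bundles and also severs actin and is a classical marker of the intestinal epithelium. It measured 0.0046, 0.36, 0.30, and 0.21 in BTΔMAFF mice, against -0.30, -0.18, -0.25, and -0.0046 in BTWT mice. The groups did not overlap, but only 0.0093 separated BTΔMAFF replicate 1 from BTWT replicate 4. The means were 0.22 ± 0.16 in BTΔMAFF mice and -0.18 ± 0.13 in BTWT mice (SD, n = 4 each), and the difference was 0.40 (SE 0.10, 95% confidence interval 0.18 to 0.63). Its unadjusted limma p was 0.0039, with an adjusted p of 0.49.

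Pls1, which encodes the intestinal fimbrin plastin 1, the other main bundler of the core, did not pass the unadjusted threshold. The values were 0.082, 0.19, 0.43, and -0.22 in BTΔMAFF mice, against -0.017, -0.11, -0.25, and 0.017 in BTWT mice. BTΔMAFF replicates 1 to 3 lay above all 4 BTWT mice, but BTΔMAFF replicate 4 lay below 3 of the BTWT mice. The difference was 0.21 with a confidence interval of -0.11 to 0.53 (limma, unadjusted p = 0.17). With single mice left out, the Pls1 difference ran from 0.11 without BTΔMAFF replicate 3 (limma, unadjusted p = 0.39) to 0.32 without BTΔMAFF replicate 4 (limma, unadjusted p = 0.021), the only 1 of these 8 fits that passed.

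Eps8, whose product binds the growing ends of actin filaments at the tips of microvilli, was measured by 3 probe sets. Their differences were 0.021 (interval -0.40 to 0.44), -0.13 (interval -0.43 to 0.18), and -0.071 (interval -0.51 to 0.37), so they did not share a sign and each interval spanned 0. On the probe set with the widest spread, the values were -0.36, -0.26, 0.31, and 0.13 in BTΔMAFF mice, against -0.24, 0.34, -0.081, and 0.081 in BTWT mice. Each group of Eps8 values ran on both sides of 0, and the groups overlapped over nearly their whole range.

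Myo1a was the more separated of the genes for membrane links. It encodes brush border myosin I, the motor that forms the lateral bridges between the actin core and the microvillar membrane. Its values were 0.20, 0.16, 0.47, and 0.20 in BTΔMAFF mice, against -0.28, -0.76, -0.86, and -0.16 in BTWT mice. All 4 BTΔMAFF mice lay above all 4 BTWT mice with a gap of 0.33, the widest among the members, and BTWT replicates 2 and 3 were the low ones. The means were 0.26 ± 0.14 in BTΔMAFF mice and -0.52 ± 0.35 in BTWT mice (SD, n = 4 each). The difference came to 0.77 (SE 0.17, 95% confidence interval 0.36 to 1.18, limma unadjusted p = 0.0029, adjusted p = 0.45).

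Ezr encodes ezrin, the member of the ezrin, radixin, and moesin family that anchors actin to membrane proteins in epithelial cells. On the probe set with the wider spread, the values were -0.14, 0.20, 0.11, and 0.30 in BTΔMAFF mice, against -0.33, 0.27, -0.39, and -0.11 in BTWT mice. BTWT replicate 2 was exceeded only by BTΔMAFF replicate 4, and the groups overlapped. The difference was 0.26 with a confidence interval of -0.13 to 0.65 (limma, unadjusted p = 0.16). With single mice left out, it ran from 0.17 without BTWT replicate 3 (limma, unadjusted p = 0.34) to 0.40 without BTWT replicate 2 (limma, unadjusted p = 0.017), and 1 of 8 fits passed. The other Ezr probe set varied by only 0.064 over all 8 arrays, at the 5.33 percentile of spread among all probe sets, and its difference was -0.017 (interval -0.070 to 0.037).

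Of the intermicrovillar adhesion complex, Ush1c was higher in BTΔMAFF mice at the unadjusted threshold, and the other 3 members had differences above 0 that did not reach it. Ush1c encodes harmonin, the scaffold that binds the tails of the protocadherins. The values were 0.14, 0.22, 0.20, and 0.0062 in BTΔMAFF mice, against -0.19, -0.39, -0.12, and -0.0062 in BTWT mice. The groups were separated by a gap of 0.012, between BTΔMAFF replicate 4 and BTWT replicate 4. The means were 0.14 ± 0.10 in BTΔMAFF mice and -0.18 ± 0.16 in BTWT mice (SD, n = 4 each), giving a difference of 0.32 (SE 0.088, interval 0.11 to 0.53, limma unadjusted p = 0.0089, adjusted p = 0.64).

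Myo7b encodes the myosin that carries this complex toward the microvillar tips. It measured -0.027, 0.22, 0.52, and 0.027 in BTΔMAFF mice, against -0.47, -0.26, -0.19, and 0.19 in BTWT mice. BTWT replicate 4 lay above BTΔMAFF replicates 1 and 4, whereas the other 3 BTWT mice lay below all 4 BTΔMAFF mice. The difference was 0.37 (SE 0.17, interval -0.038 to 0.77, limma unadjusted p = 0.070). It lay between 0.26 without BTΔMAFF replicate 3 and 0.49 without BTWT replicate 4 (limma, unadjusted p = 0.16 and 0.017) when single mice were left out, and 1 of 8 fits passed.

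The protocadherins that form the links themselves had smaller differences. Cdhr2 measured -0.14, 0.088, 0.33, and -0.014 in BTΔMAFF mice, against -0.12, 0.014, -0.081, and 0.22 in BTWT mice, a difference of 0.058 (interval -0.22 to 0.34, limma unadjusted p = 0.64). Cdhr5 measured -0.10, 0.18, 0.40, and -0.014 in BTΔMAFF mice, against -0.14, -0.0075, 0.0075, and 0.17 in BTWT mice, a difference of 0.11 (interval -0.17 to 0.39, limma unadjusted p = 0.38). In both genes BTΔMAFF replicate 3 was the highest of the 8 mice and the groups overlapped, with BTΔMAFF replicates 1 and 4 below BTWT replicate 4. Without BTΔMAFF replicate 3 the difference was -0.030 for Cdhr2 and 0.017 for Cdhr5, and over all single mice left out that of Cdhr5 reached 0.18 (without BTΔMAFF replicate 1). The upper bounds of these 2 intervals still allow a difference as large as that of Ush1c.

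**Figure D2:**
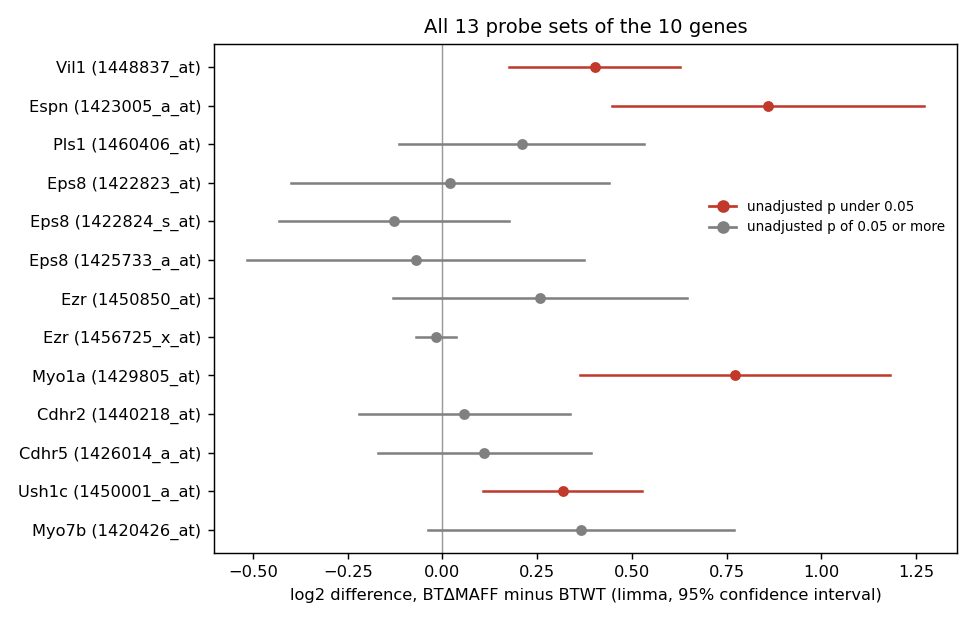
Difference between BTΔMAFF and BTWT mice (log2, points) with its 95% confidence interval (lines, limma, n = 4 mice each) for all 13 probe sets of the 10 genes. The intervals of Vil1, Espn, Myo1a, and Ush1c lie above 0, and those of the other 9 probe sets span it.

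Within a group, the same mice were often at the ends of the range. BTΔMAFF replicate 3 was the highest of its group in 6 of the 10 genes and replicate 1 the lowest in 7. Among BTWT mice, replicate 4 was the highest in 7 genes and replicates 1 and 3 the lowest in 6 and 3. The mean of the 10 genes was -0.020, 0.17, 0.34, and 0.12 in BTΔMAFF mice, against -0.29, -0.12, -0.29, and 0.015 in BTWT mice, so that BTΔMAFF replicate 1 lay below BTWT replicate 4 and the groups overlapped in this 1 pair. Among genes outside the list, those whose values over the 8 arrays were most like this mean were Sox13 (Pearson r = 0.975), Nr1d1 (0.973), Trp53bp2 (0.966), Mep1b (0.962), and Nabp2 (0.958). These r values describe 8 arrays in 2 groups, and a gene that differs between the groups takes part of its likeness from that alone.

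Genes of other microvillus and terminal web proteins were examined beside the members. Of 28 such genes, 8 were higher in BTΔMAFF mice at an unadjusted p under 0.05, 1 was lower, and 19 did not pass, with a median difference of 0.13. The shares over all genes were 3.37% higher and 2.35% lower. Anks4b, the ankyrin-repeat partner of harmonin in the adhesion complex, was higher by 0.69 (SE 0.15, limma unadjusted p = 0.0027), with values of 0.33, 0.43, 0.63, and 0.058 in BTΔMAFF mice, against -0.44, -0.25, -0.59, and -0.058 in BTWT mice. Every BTΔMAFF mouse lay above every BTWT mouse, as in Ush1c. Slc9a3r1, which encodes the ezrin-binding scaffold NHERF1, was higher on each of its 3 probe sets (differences of 0.44, 0.42, and 0.64, limma unadjusted p = 0.024, 0.032, and 0.0035). Cobl, which encodes the actin nucleator cordon-bleu, was higher on both of its probe sets (0.84 and 0.61, limma unadjusted p = 0.0044 and 0.015).

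The 1 gene that was lower, Slk, encodes a kinase that phosphorylates ezrin and its relatives. Its values on the probe set with the widest spread were -0.59, -0.23, -0.71, and -0.039 in BTΔMAFF mice, against 0.039, 0.53, 0.38, and 0.31 in BTWT mice. All 4 BTΔMAFF mice lay below all 4 BTWT mice, as was so for 237 of all 18193 genes. The difference was -0.71 (SE 0.17, interval -1.12 to -0.30, limma unadjusted p = 0.0047). Of its other 4 probe sets, 3 were also lower, with differences of -0.58, -0.59, and -0.66 (limma unadjusted p = 0.014, 0.00049, and 0.00015), and the fourth differed by -0.031. Stk10, the gene of a related kinase that acts on the same proteins, was higher by 0.53 (limma unadjusted p = 0.012). The other 4 genes that were higher were Capzb (0.66), Myo6 (0.61), Eps8l3 (0.33), and Myh14 (0.33), which encode a capping protein subunit, a motor that moves toward the base of the microvillus, a relative of Eps8, and a nonmuscle myosin heavy chain. These values are from the probe set of widest spread. The other probe sets of Capzb differed by 0.60, 0.23, and 0.21 (limma unadjusted p = 0.0022, 0.12, and 0.14) and those of Myo6 by 0.25 and 0.19 (limma unadjusted p = 0.13 and 0.11). Stk10 and these 4 genes were picked out after their values were seen.

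**Figure D3:**
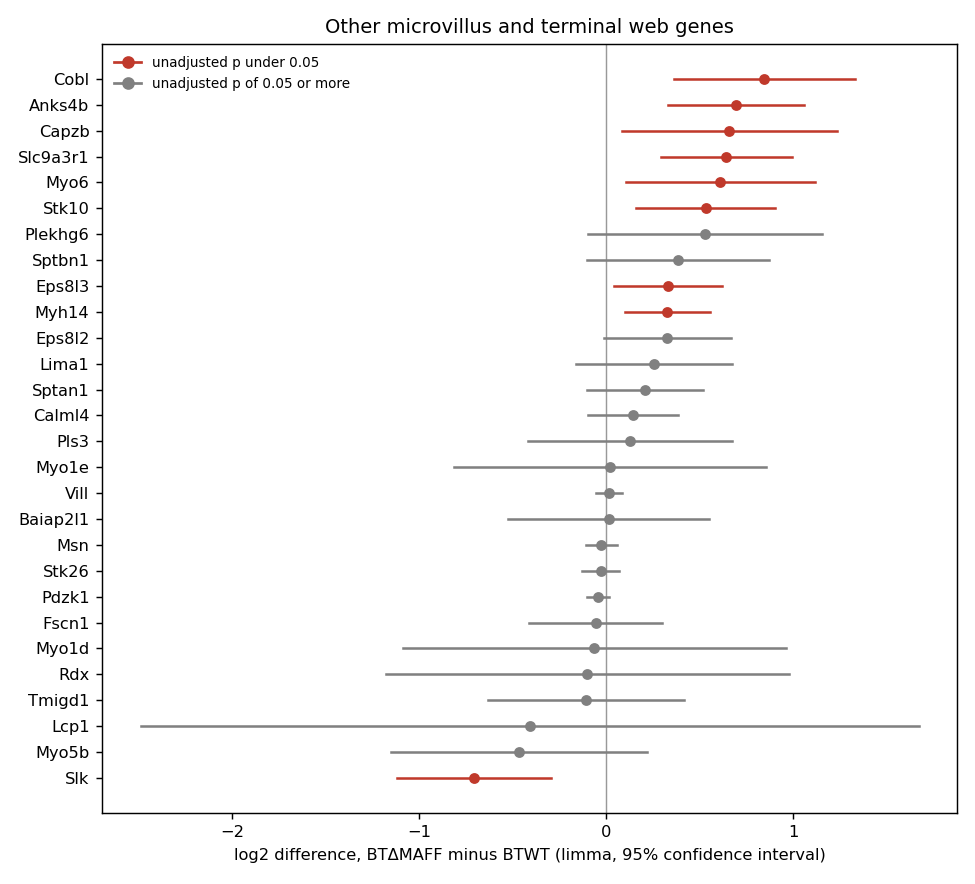
Difference between BTΔMAFF and BTWT mice (log2, points) with its 95% confidence interval (lines, limma, n = 4 mice each) for 28 genes of other microvillus and terminal web proteins, 1 probe set each. The intervals of 8 genes lie above 0, that of Slk lies below it, and 19 span it.

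The digestive enzymes that the brush border carries were examined as another list. Of 13 hydrolase genes (Sis and Ggt1 were not analysed here), 2 were higher at an unadjusted p under 0.05, 0 were lower, and the median difference was -0.0041. Among all genes, 3.37% were higher and 2.35% lower. Mep1b, the beta subunit of the metalloprotease meprin, measured 0.027, 0.28, 0.47, and 0.10 in BTΔMAFF mice, against -0.60, -0.44, -0.40, and -0.027 in BTWT mice. The groups did not overlap, and the difference was 0.59 (SE 0.15, limma unadjusted p = 0.0051). Mgam, which encodes maltase-glucoamylase, was higher by 0.12 (limma unadjusted p = 0.047), but did not pass when BTΔMAFF replicate 2, 3, or 4 or BTWT replicate 1 or 3 was left out (limma unadjusted p = 0.089 to 0.10). Enpep and Anpep, the genes of 2 aminopeptidases, had wide intervals (-0.27 to 2.67 and -0.74 to 2.28). With single mice left out, the Enpep difference ran from 0.85 without BTWT replicate 3 (limma unadjusted p = 0.22) to 1.65 without BTΔMAFF replicate 4 (limma unadjusted p = 0.024), and that of Anpep from 0.28 without BTΔMAFF replicate 3 to 1.13 without BTΔMAFF replicate 2.

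Among 12 genes of transcription factors that act in enterocyte maturation, 0 were higher and 0 lower at an unadjusted p under 0.05 in limma on the probe set that stood for each gene, and 0 passed adjustment. Their median difference was 0.16, and 10 of the 12 differences were above 0. Over all genes 3.37% were higher, 2.35% were lower, and 33.2% had a difference above 0, the last a weak yardstick. The list mean ran from -0.026 to 0.16 in BTΔMAFF mice and from -0.19 to -0.084 in BTWT mice, without overlap. On the probe set that stood for each gene, 0 of the 12 had every BTΔMAFF mouse above every BTWT mouse. The share over all genes was 1.84%. Hnf4a measured -0.075, 0.075, 0.29, and 0.64 in BTΔMAFF mice, against -0.73, 0.29, -0.55, and -0.37 in BTWT mice. BTWT replicate 2 lay among the BTΔMAFF values, and the other 3 BTWT mice lay below all 4 BTΔMAFF mice. The difference was 0.57 (interval -0.018 to 1.16, limma unadjusted p = 0.056). It ran from 0.44 without BTΔMAFF replicate 4 (limma unadjusted p = 0.14) to 0.78 without BTWT replicate 2 (limma unadjusted p = 0.0055), and 2 of 8 fits with single mice left out passed. Its other 3 probe sets differed by 0.28, 0.29, and 0.16 (limma unadjusted p = 0.0043, 0.070, and 0.52). Klf4, a factor of postmitotic epithelial cells, differed by 0.14 (limma unadjusted p = 0.11, 0.089 without BTWT replicate 1 to 0.20 without BTWT replicate 2 as single mice were left out, with 1 of 8 fits passing) on 1 probe set and by 0.17 (limma unadjusted p = 0.0013) on the other. Prdm1, a repressor that delays the maturation of the neonatal gut, and Klf5, a factor of proliferating crypt cells, differed by 0.93 (interval -0.42 to 2.28) and 0.17 (interval -0.17 to 0.51). The Prdm1 difference ran from 0.58 without BTWT replicate 3 to 1.44 without BTWT replicate 1 (limma unadjusted p = 0.33 and 0.0095), and that of Klf5 was 0.043 without BTΔMAFF replicate 4 and at most 0.24 without any other mouse. The other Klf5 probe sets differed by 0.17 and 0.048 (limma unadjusted p = 0.041 and 0.69).

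Markers of dividing crypt cells were also compared. All 4 genes of the proliferating list that were analysed were lower in BTΔMAFF mice at an unadjusted p under 0.05 in limma, namely Birc5 (-1.15), Cdk1 (-1.08), Top2a (-1.02), and Mki67 (-0.60), and Ccnb1 was not analysed here. For Top2a this is the probe set of widest spread of 3, and the other probe sets differed by -0.013 and 0.050 (limma unadjusted p = 0.74 and 0.54). The share of all genes that were lower at this threshold was 2.35%. The mean of these 4 genes was -0.13, -0.41, -0.65, and -0.28 in BTΔMAFF mice, against 1.01, 0.39, 0.90, and 0.061 in BTWT mice. The groups did not overlap, and the BTΔMAFF mouse with the highest mean of the brush border genes (replicate 3) had the lowest mean of the proliferation genes, whereas the BTWT mouse with the highest mean of the brush border genes (replicate 4) had the lowest proliferation mean of its group. Within BTΔMAFF the order of the mice by 1 mean was the reverse of the order by the other, and within BTWT it was so except between replicates 1 and 3, whose brush border means were close (-0.289 and -0.293). The mean of the 4 stem cell markers ordered the mice of each group as the proliferation mean did, though its groups overlapped. It was 0.62, -0.37, -0.40, and -0.13 in BTΔMAFF mice, against 0.84, 0.053, 0.49, and -0.053 in BTWT mice. The reversed order is thus not particular to the proliferation genes. With 4 mice in a group these orders are given as values. The part of the proliferating cells in the differences of the members was not tested. In sorted cells measured in bulk, fewer cells of a type and less RNA of a gene per cell cannot be told apart.

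Markers of surface colonocytes had a median difference nearer to 0. Of 8 genes, 2 were higher, and the median of the 8 differences was 0.074, with a range of -0.43 to 0.48. The higher genes were Slc26a3 (0.48, limma unadjusted p = 0.00058), the chloride and bicarbonate exchanger, and Krt20 (0.32, limma unadjusted p = 0.012), a keratin of differentiated cells. For Slc26a3 this is the probe set of widest spread. Its other probe sets differed by 0.30, 0.33, and 0.29 (limma unadjusted p = 0.056, 0.019, and 0.0043). Aqp8 had the lowest difference, -0.43 (interval -0.96 to 0.11, limma unadjusted p = 0.10). The list mean ran from -0.030 to 0.16 in BTΔMAFF mice and from -0.14 to 0.058 in BTWT mice. Of 6 general epithelial markers, 1 was higher and 0 were lower. For all lists of this paragraph, the shares over all genes to set beside these counts were 3.37% higher and 2.35% lower. Of 7 goblet cell markers, 2 were higher (Fcgbp, 0.67, and Clca1, 0.90) and 1 was lower (Agr2, -0.55). The Clca1 and Agr2 values are from the probe set of wider spread. Their other probe sets differed by 0.37 and -0.37 (limma unadjusted p = 0.0015 and 0.030). The goblet list means were 0.028 to 0.26 in BTΔMAFF mice and -0.26 to 0.16 in BTWT mice. Of 4 stem cell, 3 enteroendocrine, 7 leukocyte, and 8 stromal markers, none passed the unadjusted threshold in limma, and of 3 tuft cell markers 1 was lower (Trpm5, -0.46 on the probe set of widest spread and -0.065 and -0.020 on the others). The stromal list mean ran from -0.066 to 0.68 in BTΔMAFF mice and from -0.57 to 0.14 in BTWT mice, and the leukocyte list mean ran from -0.038 to 0.88 in BTΔMAFF mice and from -0.26 to 1.03 in BTWT mice. Of the leukocyte genes, Cd74 varied by 8.94 over the 8 arrays and the other 6 by at most 0.12. The part of these cell types in the differences of the members was not tested.

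**Figure D4:**
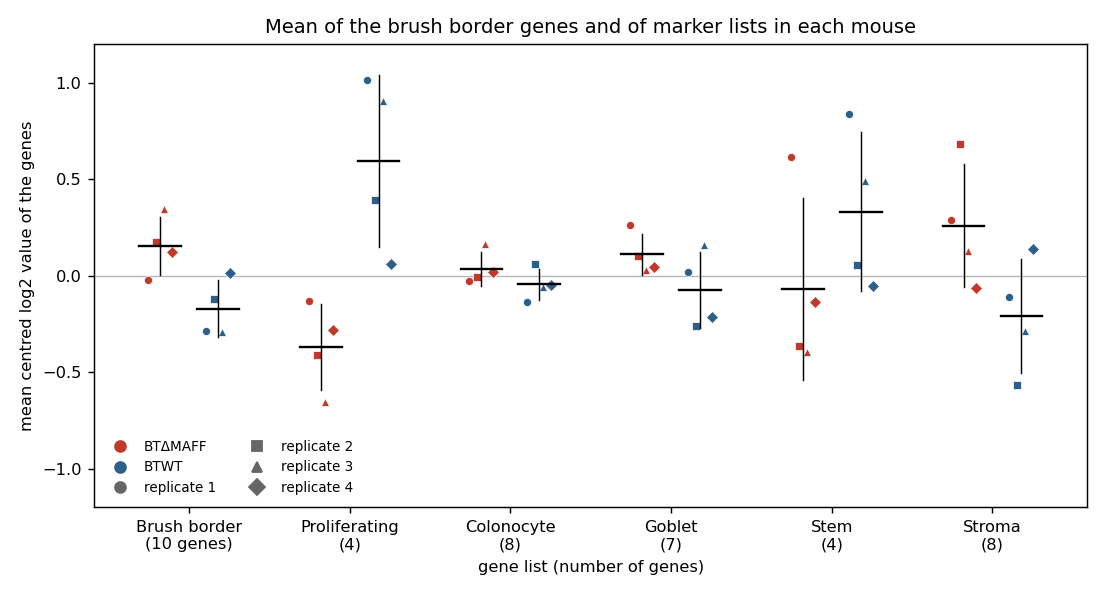
Mean centred log2 value of the 10 brush border genes and of 5 marker lists in each mouse (points, shape gives the replicate number), with the group mean (horizontal bar) and 1 SD (vertical line, n = 4 mice each). BTΔMAFF values lie left of BTWT values. The proliferating list is separated between the groups in the opposite direction to most brush border genes, and the other 4 marker lists overlap.

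RNA quality was compared through the 3′ minus 5′ difference of the control probe sets. It was 0.0054 ± 0.16 in BTΔMAFF mice and -0.11 ± 0.14 in BTWT mice for Gapdh (SD, n = 4 each, two-sided exact permutation test, p = 0.31), and 0.034 ± 0.051 in BTΔMAFF mice and -0.036 ± 0.020 in BTWT mice for beta-actin (exact permutation p = 0.086). The part of RNA quality was not tested. Without the 2 arrays that stood apart, BTΔMAFF replicate 4 and BTWT replicate 2, 6 of the 10 genes were higher and 0 were lower. The differences were 0.89 for Espn, 0.71 for Myo1a, 0.41 for Vil1, and 0.29 for Ush1c. In that fit 1624 of all 45037 probe sets were higher and 3121 lower, against 1288 and 1007 with all 8 arrays. When limma weighted the arrays by their fit, 7 genes were higher, and Espn and Ush1c had adjusted p values of 0.027 and 0.035. With these weights 4104 of all probe sets were higher, 7429 were lower, and 510 passed adjustment. The largest weights were those of BTΔMAFF replicate 2 (4.36) and BTWT replicate 3 (4.68).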

How the data were processed

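Colonic epithelial RNA of 8 mice (4 BTΔMAFF and 4 BTWT) was measured on 1 Affymetrix mouse genome array each. The authors sorted the cells by FACS, isolated RNA with the RNeasy kit, and amplified cDNA before hybridization. The values deposited by the authors are log2 values centred on the median of the 8 arrays per probe set. Affymetrix Expression Console is named in the submitters' processing notes, and GeneSpring in the methods. How probes were summarized, corrected for background, and normalized is not given in the sources used here. Centred values carry no detection call, so the distance of a probe set from background is unknown, and the number of arrays limits the precision.

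Groups and replicate numbers came from the sample labels. After 64 Affymetrix controls were left out of 45101 probe sets, 45037 entered a two-sided fit without covariates in limma (version 3.58.1, R version 4.3.3), using lmFit and eBayes. P values were adjusted by Benjamini-Hochberg, with 0.05 as threshold. The array annotation gave 1 symbol to 34945 probe sets, several to 932, and none to 9160. Of those with 1 symbol, 34741 were matched by gene ID to RefSeq genes, which changed 0 symbols. For counts by gene, each gene was represented by its probe set of largest SD over the 8 arrays, groups ignored. All probe sets of the members were reported. Of each wider list, values were given for up to 4 genes of smallest p, and by likeness to the mean of the members the 5 genes of highest Pearson r were named. Some entries of the wider lists are not reported here. The code was tested on simulated data, and figures were drawn with matplotlib 3.10.9.

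The members and the lists were chosen with earlier results of these data known. Nothing in the labels says whether mice of a group shared a cage, and p values then measure the spread between these mice only. Alternatives were array weights, quantile normalization, a median of 0 for each array, a robust prior, the methods' t-test (run per probe set), the replicate number as a block, a filter that kept the 50% of probe sets with the larger SD, leaving out each array or both that stood apart, and other choices of probe set per gene.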

Additional observations from a re-analysis of the deposited data

Results flagged for a closer look

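In 1 of 26 groups examined (the 13 member probe sets in each group of mice), a single mouse lay far from the other 3. For Myo1a in BTΔMAFF mice, replicate 3 measured 0.47 while the other 3 measured 0.16 to 0.20, so that its gap to the nearest was 0.883 of the range of the group. Chance alone places about 1 in 20 such groups beyond the limit used (the 95% critical value of Dixon's test). Without BTΔMAFF replicate 3 the Myo1a difference was 0.70 (limma, unadjusted p = 0.0095).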

How the results depend on the processing

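Vil1, Espn, and Myo1a were higher in BTΔMAFF mice at the unadjusted threshold under all 16 alternatives, and Ush1c under 15 of 16. The exception was the filter on SD, in which the prior variance was estimated on the probe sets of larger SD only (limma, unadjusted p = 0.067). The count of 4 higher member genes was 7 with array weights (7 probe sets, of which 2 passed adjustment) and 4 to 5 when single arrays were left out, with 5 without BTΔMAFF replicate 4. The weights were 4.36 for BTΔMAFF replicate 2 and 4.68 for BTWT replicate 3, and at most 1.33 for any other array. Over all probe sets, the 0 that passed adjustment became 510 with array weights, 1 with centring, 25 with the filter on SD, 2 without both arrays that stood apart, and 0 to 6 without single arrays. At an unadjusted p, 1288 higher and 1007 lower probe sets became 4104 and 7429 with array weights, 3121 lower without both arrays, and 997 to 1823 higher and 777 to 2674 lower without single arrays, the most without BTΔMAFF replicate 4. The cause was not tested.

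Of the other microvillus genes, 8 higher and 1 lower became 14 and 3 with array weights and 6 to 9 and 1 to 2 without single arrays. Lower counts were 0 with the probe set of smallest SD, 2 with the methods' t-test, and 2 without both arrays. Hydrolases counted 1 higher (in place of 2) with the replicate block and the methods' t-test, 1 to 2 without single arrays, and 1 lower with array weights and without both arrays (0 to 1 without single arrays). Transcription factors counted 3 higher (in place of 0) with array weights, 1 with centring, and 1 with the mean of probe sets. They counted 3 with the probe set of smallest SD, 1 with the filter on SD, 2 without both arrays, and 0 to 2 without single arrays. Counts over all 45037 probe sets rose too, to 4104 higher and 7429 lower with array weights and to 1624 and 3121 without both arrays.

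The sign turned for the Ezr probe set of small spread with centring (0.0014) and quantile normalization (0.0054), and for Ptprc with array weights (-0.013) and without both arrays (-0.0053). Without single arrays, differences ran from -0.030 to 0.13 for Cdhr2 and from -0.067 to 0.15 and -0.19 to 0.036 for 2 of the Eps8 probe sets. They ran from -0.23 to 0.083 for Epcam and -0.013 to 0.023 for Ptprc. The Epcam and Ptprc values in this paragraph are from the probe set of wider spread. Deviations of same-numbered mice from their group means had correlations of 0.39, -0.040, 0.033, and -0.27. Any pair of mice across the groups ran from -0.39 to 0.46. The labels do not say whether the numbers pair the mice, and 4 correlations cannot settle it. With the replicate number as a block, 4 member genes were higher and 0 lower, and the counts other than that of the hydrolases stayed within 1.5 times.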
